A study of Mus musculus with 7 samples.

Results

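Follistatin, a secreted trap for activins and myostatin, was the most changed of the myostatin, transforming growth factor beta (TGF-beta) and activin signalling genes measured in Yy1 knockout soleus, a slow postural hindlimb muscle of the mouse. The genes were Mstn, Tgfb1, Tgfb2, Tgfb3, Tgfbr1, Tgfbr2, Acvr2a, Fst, Smad3 and Smad7. Every probe set to which the platform annotation gives exactly 1 gene symbol, and that symbol one of these 10, was taken. This gave 17 of the 22690 probe sets of the table, for 9 of the 10 genes and of the 12393 genes named in all. Mstn, the gene of myostatin, had no such probe set and was not analysed here.

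Total RNA from soleus was hybridised to 7 one-colour arrays. The 3 wild type arrays were set against 4 of the genotype Yin Yang 1 (YY1) knockout, where Yin Yang 1 is a zinc finger transcription factor. All mice were 6 months old and of a mixed background of C57Bl/6 and 129, and no treatment is named. The sources used here do not give the removed part of Yy1, the cells that lack it or the driver used. The labels do not state that each array came from its own animal, and p-values then measure only the spread between these samples, which may be technical.

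The members of this family are secreted as precursors and bind pairs of type I and type II serine/threonine kinase receptors. TGF-beta, activin and myostatin receptors phosphorylate Smad2 and Smad3, which join Smad4 and act on genes in the nucleus, while bone morphogenetic protein (BMP) receptors act through Smad1, Smad5 and Smad9. In skeletal muscle, myostatin and activins are known to restrain fibre growth, follistatin is known to release that restraint, and TGF-beta is known for driving matrix deposition by fibroblasts.

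Levels are log2(intensity + 1) of the deposited values, and a log2 fold change is knockout minus wild type. A probe set was called when its adjusted p, from limma with Benjamini-Hochberg adjustment over all 22626 probe sets that are not controls, was under 0.05. Array medians lay between 139.1 and 143.2. All 9 genes listed as slow muscle fibre markers, of which Ckm and Acta1 are not particular to slow fibres, were bright on these arrays. Their wild type means ran from 14.58 for Tnni1, the slow troponin I, to 15.57 for Acta1, the skeletal actin. Knockout means ran from 14.96 for Ckm to 15.62 for Acta1. The highest value on any array was 15.63, so changes in these genes may be compressed. Of these 9, 3 were called higher (Tnni1, Tnnt1 and Tnnc1), 2 lower (Myl3, at -0.26, and Ckm, at -0.21) and 4 were not called. Of the 4 probe sets of Yy1, 3 were lower in knockout, with log2 fold changes of -1.02 (SE 0.11, adjusted p = 0.000271), -1.70 (SE 0.14) and -0.77 (SE 0.15). The dimmest Yy1 probe set measured -0.060 (SE 0.11, adjusted p = 0.711).

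The promoters of Tgfb1, Tgfb2 and Acvr2a are shown because these 3 members rose and have an entry among the RefSeq promoters used here (build GRCm38.p6). Each is the stretch of 250 bases that ends just before the start site, 5′ to 3′ on the gene's strand, and capitals mark a match to CAGACA, a Smad binding element. The Tgfb2 stretch is chr1:186705990-186706239 on the minus strand, that of Tgfb1 is chr7:25686752-25687001 on the plus strand and that of Acvr2a is chr2:48813859-48814108 on the plus strand.
Tgfb2: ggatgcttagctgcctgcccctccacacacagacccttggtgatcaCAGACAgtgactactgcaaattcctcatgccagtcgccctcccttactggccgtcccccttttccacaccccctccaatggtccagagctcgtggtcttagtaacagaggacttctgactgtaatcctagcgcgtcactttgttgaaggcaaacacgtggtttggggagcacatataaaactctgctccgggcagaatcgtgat
Tgfb1: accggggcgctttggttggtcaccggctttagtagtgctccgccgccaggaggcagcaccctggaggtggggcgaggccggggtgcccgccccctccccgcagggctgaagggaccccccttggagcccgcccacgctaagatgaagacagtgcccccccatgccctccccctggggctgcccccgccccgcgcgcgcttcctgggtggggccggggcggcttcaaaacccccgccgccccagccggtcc
Acvr2a: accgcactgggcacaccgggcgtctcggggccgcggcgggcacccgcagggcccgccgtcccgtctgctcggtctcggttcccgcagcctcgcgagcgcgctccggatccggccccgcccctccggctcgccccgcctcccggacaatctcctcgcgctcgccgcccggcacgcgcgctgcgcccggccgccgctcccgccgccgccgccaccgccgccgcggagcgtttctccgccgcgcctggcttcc

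The Tgfb2 stretch held 53.6% G and C, close to the median of 52.4% over all 32851 promoters, while those of Tgfb1 and Acvr2a held 75.2% and 82.0%. Windows of 300 bases, which add the first 50 bases of the transcript, were searched on both strands for 4 motifs, and 8 windows of 7 of the 10 genes were on hand. The YY1 core CCATNTT was found in 0 of the 8 windows and in 16.1% of all promoters. CAGACA was found in 3 of the 8, those of Tgfb2, Mstn and 1 of the 2 windows of Tgfbr1, against 21.0% of all promoters. In the Tgfb2 window it started 204 bases before the start site. GTCTAGA, part of the Smad palindrome, was found in 0 of the 8 and in 2.19% of all promoters, and the E-box CAGCTG in 1 of the 8, that of Tgfbr2, and in 16.3% of all. None of these letter patterns overlapped another in the 8 windows. These matches are descriptions of letters and not of bound sites.

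Of the 17 probe sets, 8 were higher in knockout, 1 was lower and 8 were not called. Over all 22626 probe sets, 28.6% were called, 14.3% higher and 14.3% lower. The median log2 fold change of the 17 was 0.18, and that of all probe sets was 0.01. The wild type and knockout values did not overlap in 8 of the 17 (7 higher and 1 lower), where 36.4% of all probe sets had no overlap, 18.4% higher and 17.9% lower. The genes with a called probe set were Tgfb1, Tgfb2, Tgfb3, Acvr2a, Fst and Smad3.

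**Figure D1:**
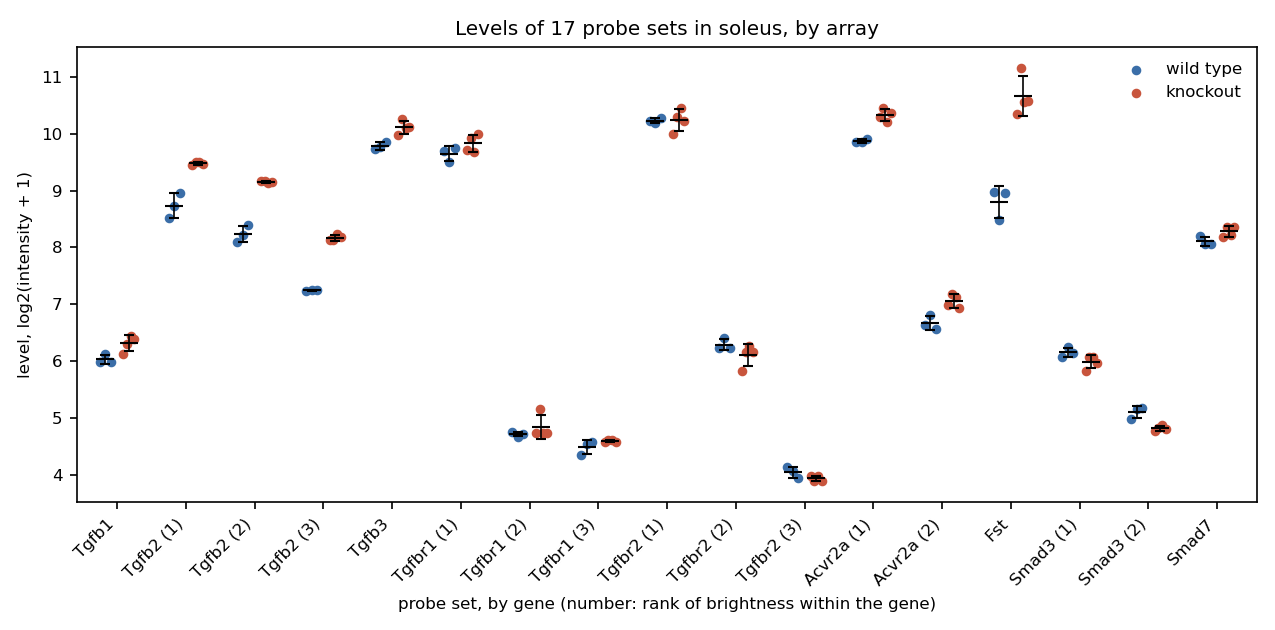
Level of each of the 17 probe sets on each array, as log2(intensity + 1), in wild type (blue, n = 3) and knockout (red, n = 4). Horizontal bars are group means and error bars are 1 SD. The knockout arrays lie above all wild type arrays for the 3 Tgfb2 probe sets, Tgfb3, both Acvr2a probe sets and Fst.

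All 3 TGF-beta ligand genes were higher in knockout, and all 3 probe sets of Tgfb2 rose. TGF-beta 2 is a secreted isoform that needs the coreceptor betaglycan for strong binding to its type II receptor. The brightest Tgfb2 probe set (1423250_a_at) read intensities of 365, 422 and 497 on wild type arrays and of 700, 722, 729 and 707 on knockout arrays. Every knockout array was above every wild type array, and the knockout arrays lay close together while the wild type arrays were spread more widely. The mean level was 8.73 ± 0.22 log2 units over the wild type arrays (SD, n = 3) and 9.48 ± 0.03 over the knockout arrays (SD, n = 4). The probe set rose 1.68-fold, by 0.75 on the log2 scale (SE 0.10, adjusted p = 0.000737).

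The second Tgfb2 probe set (1450922_a_at) read 274, 297 and 336 in wild type and 574, 577, 561 and 571 in knockout. Its log2 fold change was 0.92 (SE 0.07, adjusted p = 1e-04), or 1.89-fold. The third (1450923_at) read 149, 152 and 151 in wild type and 278, 278, 301 and 290 in knockout, and rose by 0.92 log2 units (SE 0.05, adjusted p = 4.88e-05). The annotation names 1 source sequence for all 3 of these probe sets, and they are readings of 1 gene in the same RNA.

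Tgfb3, a ligand isoform made in mesenchymal tissue, was also higher. Its probe set (1417455_at) read 851, 868 and 930 in wild type and 1013, 1227, 1100 and 1115 in knockout. The groups did not overlap, and knockout array 1 lay nearest to wild type. The log2 fold change was 0.33 (SE 0.07, adjusted p = 0.0103), or 1.26-fold.

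Tgfb1, the isoform best known from immune cells, platelets and scarring, was also called higher, at a dim probe set (1420653_at). It read 62.4, 68.7 and 62.3 in wild type and 68.7, 77.9, 86.2 and 82.4 in knockout. Knockout array 1 had the same value as wild type array 2, so the groups touched. The log2 fold change was 0.28 (SE 0.08, adjusted p = 0.0369), or 1.22-fold. This call was lost when any 1 array other than knockout array 1 was left out, with adjusted p of 0.114, 0.0517 and 0.118 without wild type arrays 1, 2 and 3 and of 0.0743, 0.0796 and 0.0866 without knockout arrays 2, 3 and 4.

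Of the receptor members, only Acvr2a was called. Acvr2a encodes a type II receptor that binds activins and myostatin. Its brighter probe set (1437382_at) read 922, 932 and 965 in wild type and 1251, 1412, 1189 and 1313 in knockout, which is a rise of 0.46 log2 units (SE 0.07, adjusted p = 0.00156) or 1.37-fold. The dimmer one (1451004_at) read 98.0, 112 and 94.1 in wild type and 126, 144, 140 and 121 in knockout, a rise of 0.39 log2 units (SE 0.09, adjusted p = 0.0102). Every knockout array was above every wild type array in both.

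Acvr2b, the paralogous type II receptor, is not among the 10 genes and was singled out after its values were seen, since it went the other way. Its mean level was 8.48 ± 0.12 log2 units over the wild type arrays (SD, n = 3) and 8.10 ± 0.13 over the knockout arrays (SD, n = 4). The change was -0.39 (SE 0.09, adjusted p = 0.0105). Every knockout array was below every wild type array for Acvr2b and above it for Acvr2a. Because Acvr2b was chosen for its direction, the difference was not tested.

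No probe set of either TGF-beta receptor, 3 for each, was called. Tgfbr1 encodes the type I receptor, also known as ALK5, and its brightest probe set (1420895_at) read 829, 724 and 866 in wild type and 845, 977, 822 and 1019 in knockout. The groups overlapped, and the log2 fold change was 0.18, with a 95% interval from -0.04 to 0.40. The others, 1420893_a_at and 1420894_at, measured 0.13 and 0.10 at levels between 4.34 and 5.16 on all arrays.

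Tgfbr2 encodes the type II receptor, and its brightest probe set (1426397_at) read 1197, 1167 and 1244 in wild type and 1022, 1265, 1411 and 1193 in knockout. Knockout arrays lay on both sides of the wild type arrays, and the log2 fold change was 0.02 (95% interval from -0.22 to 0.25). The other probe sets of Tgfbr2, 1425444_a_at and 1422019_at, measured -0.18 (95% interval from -0.43 to 0.06) and -0.11 (95% interval from -0.25 to 0.04). At 1426397_at, 1420894_at and 1422019_at both bounds lay nearer to 0 than the 0.28 measured for Tgfb1, and at the other 3 probe sets 1 bound lay beyond that size. The wild type means of 1420894_at and 1422019_at, 4.48 and 4.04 log2 units, were below the lower quartile of every array, which was 5.29 or more. Their intervals may therefore miss a change in the RNA.

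Fst, the gene of follistatin, had the largest log2 fold change of the 17 probe sets. Its probe set (1421365_at) read 503, 356 and 496 in wild type and 1298, 2298, 1511 and 1535 in knockout. The lowest knockout array was above the highest wild type array, and knockout array 2 was the highest of all. Mean levels were 8.80 ± 0.28 log2 units over the wild type arrays (SD, n = 3) and 10.66 ± 0.35 over the knockout arrays (SD, n = 4). The log2 fold change was 1.86 (SE 0.20, adjusted p = 0.000319), or 3.63-fold, with a 95% interval from 1.41 to 2.31. It stayed between 1.69 and 1.97 under all 15 alternatives run for it.

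**Figure D2:**
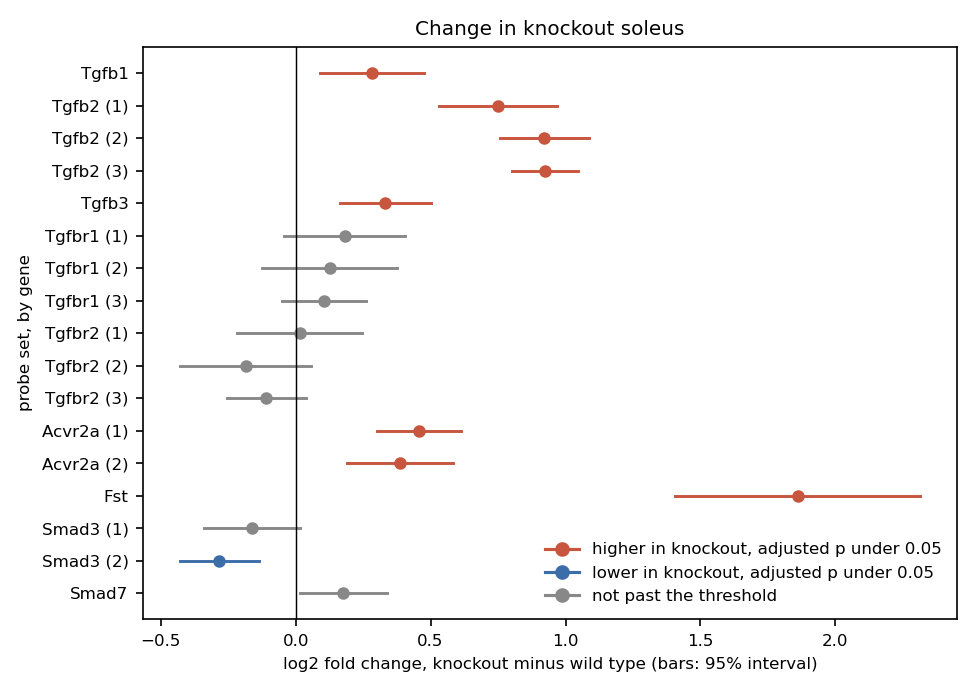
Log2 fold change of each of the 17 probe sets, knockout minus wild type, with its 95% interval from limma. Fst stands at 1.86 and the Tgfb2 probe sets between 0.75 and 0.92, while the 3 Tgfbr1 and 3 Tgfbr2 probe sets have intervals that include 0.

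The intracellular members moved little. Smad3, which carries the TGF-beta, activin and myostatin signal to the nucleus, was called lower at its dimmer probe set (1450472_s_at), which read 30.5, 34.5 and 35.0 in wild type and 26.3, 27.4, 28.1 and 26.9 in knockout. The groups did not overlap, and the log2 fold change was -0.28 (SE 0.06, adjusted p = 0.0112). Its level of 4.82 in knockout was below the lower quartile of every array, which was 5.29 or more, and no detection call was used. At the brighter Smad3 probe set (1450471_at), with 66.5, 74.5 and 69.3 in wild type and 55.8, 66.5, 66.5 and 61.8 in knockout, the log2 fold change was -0.16 and was not called (adjusted p = 0.16). Wild type array 1 had the same value as knockout arrays 2 and 3.

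Smad7, the inhibitory Smad that TGF-beta itself induces and that blocks the type I receptor, was not called. Its probe set (1423389_at) read 294, 267 and 266 in wild type and 289, 328, 298 and 330 in knockout, with wild type array 1 above knockout array 1. The log2 fold change was 0.18, with a 95% interval from 0.01 to 0.34 and an adjusted p of 0.0994.

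Other genes of the pathway were taken from lists by role, each gene by the probe set with its highest mean. Of 104 listed genes, 91 were measured: 28 were higher in knockout, 13 were lower and 50 were not called. Over all 12393 genes so taken, 31.8% were called, 16.3% higher and 15.5% lower. The median log2 fold change of the 91 was 0.09.

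Among 8 other ligands of the TGF-beta, activin and myostatin branch, 2 rose and none fell. These 25% called lay under the 31.8% over all genes. Inha encodes the inhibin alpha chain, which pairs with an activin beta chain to form the activin antagonist inhibin. It read 7.19, 7.25 and 7.11 log2 units in wild type and 7.89, 8.24, 8.11 and 8.11 in knockout, a rise of 0.90 (SE 0.08, adjusted p = 0.00019). Inhbb, the activin beta B chain, rose by 0.47 (SE 0.12, adjusted p = 0.022), while its second probe set measured -0.10, and with the mean of both the call was lost (adjusted p = 0.14). It was also lost when wild type array 1 or 2 was left out (adjusted p = 0.0667 and 0.0905), or knockout array 4 (0.0513). Inhba, the activin beta A chain, measured -0.04 (SE 0.07, adjusted p = 0.728), and Gdf11, the closest paralogue of myostatin, -0.05 (SE 0.07, adjusted p = 0.618).

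Of 9 BMP ligands, 2 fell and none rose, which is 22.2% called and under the 31.8% over all genes. Bmp6 changed by -0.49 (SE 0.12, adjusted p = 0.018) and Bmp4 by -0.31 (SE 0.07, adjusted p = 0.013). The Bmp6 call was lost without wild type array 1 (adjusted p = 0.0593) or 3 (0.0638), and that of Bmp4 without wild type array 3 (0.0537).

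Receptors and coreceptors outside the 10 genes were lower or not called: 6 of 11 fell and none rose, with a median log2 fold change of -0.29. This is 54.5% called against 31.8% over all genes, where 15.5% were lower. Amhr2, the type II receptor of anti-Müllerian hormone, changed by -1.42 (SE 0.16, adjusted p = 0.000416). Acvr1b, also known as ALK4, is the type I receptor that activins use, and it read 9.44, 9.46 and 9.57 log2 units in wild type and 8.58, 8.41, 8.69 and 8.64 in knockout. Its log2 fold change was -0.91 (SE 0.08, adjusted p = 0.000131) and its second probe set measured -0.22 and was not called. The coreceptor Eng, or endoglin, changed by -0.65 (SE 0.10, adjusted p = 0.00151), with -0.89 at its second probe set. The other 3 that fell were Acvrl1 (-0.52), the BMP type I receptor of endothelium, Acvr2b and Acvr1 (-0.29). Other Acvr1 probe sets measured -0.17 and -0.03 and were not called. Tgfbr3, of betaglycan, measured 0.03 at a dim probe set (adjusted p = 0.796).

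Endothelial markers moved with Eng and Acvrl1, which blood vessel endothelium is known to express. All 7 endothelial markers measured were lower, against 15.5% of all genes, and their median log2 fold change was -1.0. Their summed intensity was 3612 to 3950 in wild type and 1776 to 1934 in knockout. The part of these markers in the receptor result was not tested. In bulk tissue such as this, fewer cells of a type and less RNA per cell cannot be told apart.

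Of 6 other Smads, 3 rose and none fell, or 50% called against 31.8% over all genes. Smad1 and Smad5, the Smads of BMP receptors, had log2 fold changes of 0.64 (SE 0.07, adjusted p = 0.000288) and 0.41 (SE 0.08, adjusted p = 0.00607). Second probe sets measured 0.71 for Smad1, called higher, and 0.24 for Smad5, not called. Smad2, the partner of Smad3, rose by 0.37 (SE 0.07, adjusted p = 0.00647). The shared partner Smad4 measured 0.12 (adjusted p = 0.128) and the inhibitory Smad6 -0.03 (adjusted p = 0.836).

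Genes of extracellular binders and inhibitors rose in 5 of 13 cases and none fell, or 38.5% called against 31.8% over all genes. Ltbp2, of a latent TGF-beta binding protein family member found in elastic fibres, rose by 1.09 (SE 0.17, adjusted p = 0.00176). Of the same family, Ltbp1 rose by 0.29 and Ltbp3 by 0.24, while Ltbp4 measured -0.42 and was not called (adjusted p = 0.0594). Bgn, of the proteoglycan biglycan, rose by 1.08 (SE 0.18, adjusted p = 0.00293) and Fstl1, of a follistatin-like glycoprotein, by 1.05 (SE 0.17, adjusted p = 0.00246). A second Fstl1 probe set measured 0.56 and was not called. Fstl3, of another secreted binder of activins and myostatin, measured -0.10 (SE 0.07, adjusted p = 0.326).

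Of 9 genes that process or activate the ligands, 1 fell and none rose, or 11.1% called against 31.8% over all genes. Itgb6, the integrin subunit that with alpha v frees latent TGF-beta, changed by -0.92 (SE 0.16, adjusted p = 0.00345) and by -0.85 at its second probe set. Furin, a protease that cleaves the precursors, measured 0.02 (adjusted p = 0.85).

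Intracellular regulators went both ways, with 4 of 15 higher and 2 lower, or 40% called against 31.8% over all genes. Ski, a corepressor of Smads, rose by 0.43 (SE 0.07, adjusted p = 0.00208), as did Pmepa1, a feedback inhibitor that TGF-beta induces, by 0.42 (SE 0.07, adjusted p = 0.00346), while its other probe sets measured 0.36 and 0.17 and were not called. Ppm1a, a phosphatase of Smads, rose by 0.26 (SE 0.05, adjusted p = 0.00708), but not with the mean of its probe sets (0.09, adjusted p = 0.305). Wwp1, a ubiquitin ligase, changed by -0.81 (SE 0.14, adjusted p = 0.003). Bambi, a decoy receptor, changed by -0.32 (SE 0.09, adjusted p = 0.0348) and lost its call without any array except knockout array 3 (adjusted p = 0.0595 to 0.121).

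**Figure D3:**
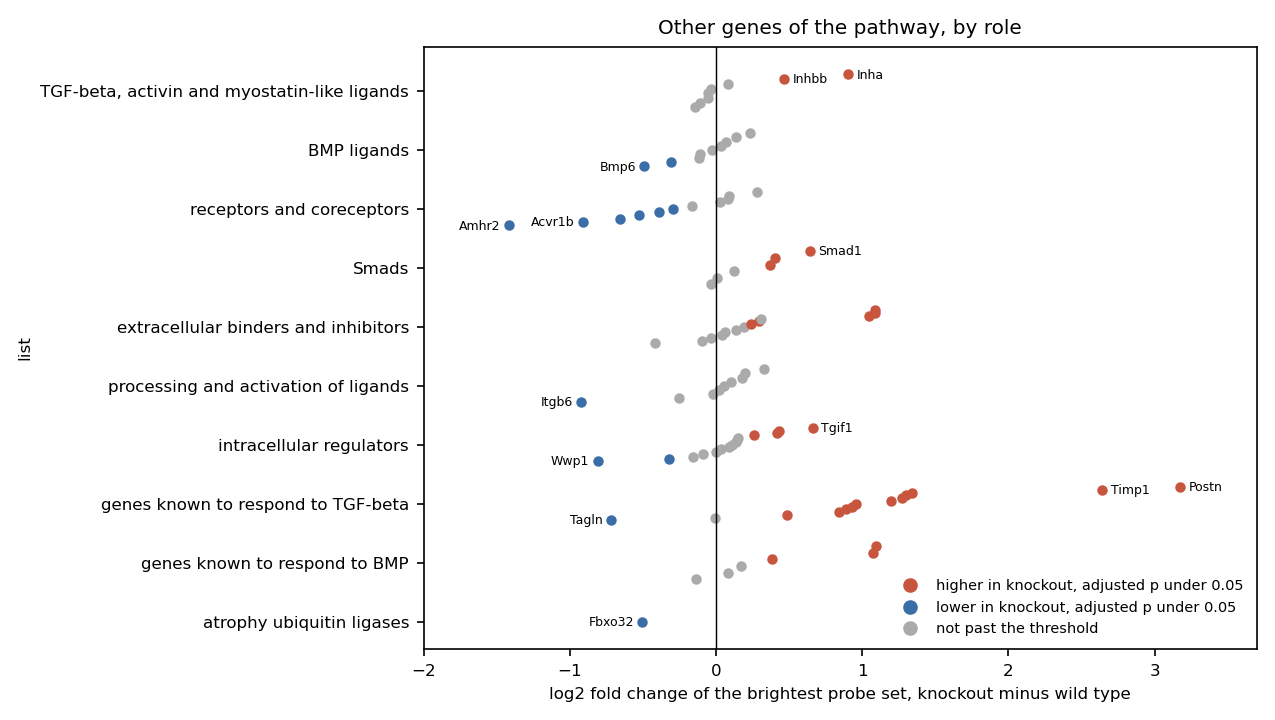
Log2 fold change of 91 other genes of the pathway, knockout minus wild type, 1 point a gene by its brightest probe set, in rows by list. Points for genes known to respond to TGF-beta lie mostly to the right, up to Postn at 3.18, and receptor points reach down to Amhr2 at -1.42. The lists were chosen with earlier results of these data known.

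Genes known to respond to TGF-beta were mostly higher: 11 of 13 rose and 1 fell, with a median log2 fold change of 0.96. Of the list 92.3% was called, against 31.8% of all genes, and 16.3% of all genes were higher. The list was chosen with earlier results of these data known, so its count describes these data and is not independent support. Ccn2, of connective tissue growth factor, read 10.02, 9.97 and 10.06 log2 units in wild type and 11.02, 11.38, 11.23 and 11.24 in knockout, a rise of 1.20 (SE 0.08, adjusted p = 7.59e-05). Postn, of the matrix protein periostin, rose by 3.18 (SE 0.26, adjusted p = 0.000115) and Timp1, an inhibitor of matrix proteases, by 2.64 (SE 0.22, adjusted p = 0.000124). Tagln, an actin-binding protein of smooth muscle, went the other way, at -0.72 (SE 0.08, adjusted p = 0.000406). These genes also answer to other signals, and TGF-beta activity was not measured here.

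The summed intensity of the 13 response genes was 12320 to 13390 in wild type and 20170 to 34950 in knockout, lowest on knockout array 1 and highest on knockout array 3. The sums of macrophage markers and of fibroblast markers had the same lowest and highest knockout arrays. Bright genes weigh most in such sums, and single response genes differed in their highest knockout array. It was knockout array 2 for Ccn2 and Postn, 3 for Timp1 and 1 for Junb. All 8 macrophage markers were higher in knockout, with a median log2 fold change of 1.24 and a summed intensity of 3380 to 4121 in wild type and 7304 to 12300 in knockout. Over all 12393 genes, 16.3% were called higher and 15.5% lower. Fibroblast markers were higher in 4 of 5 cases, with sums of 4658 to 6288 and 6250 to 8437. Among smooth muscle and pericyte markers, 3 of 6 were lower and 1 was higher, with sums of 10940 to 13250 in wild type and 6516 to 7435 in knockout. Rgs5, the brightest of these 6, made up most of these sums, with mean levels of 13.20 log2 units in wild type and 12.29 in knockout. Cspg4 rose by 0.73, and Pdgfrb and Cnn1, at -0.08 and -0.10, were not called. Of 5 satellite cell markers, 2 were higher and 2 lower. Lower calls were made for 2 of 3 adipocyte markers, 1 of 3 Schwann cell markers and 1 of 2 red blood cell markers. The part of these markers in the results for the ligands and the response genes was not tested. T cell markers were called in 0 of 4 cases by limma, with unadjusted p above 0.05 for each, and their sums were 379.8 to 402.7 and 379.6 to 413.9. Their mean levels over the arrays were low, at 4.61 log2 units for Cd3g, 6.42 for Cd8a, 6.82 for Cd3e and 7.44 for Cd4. A change in T cell RNA may therefore be missed.

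**Figure D4:**
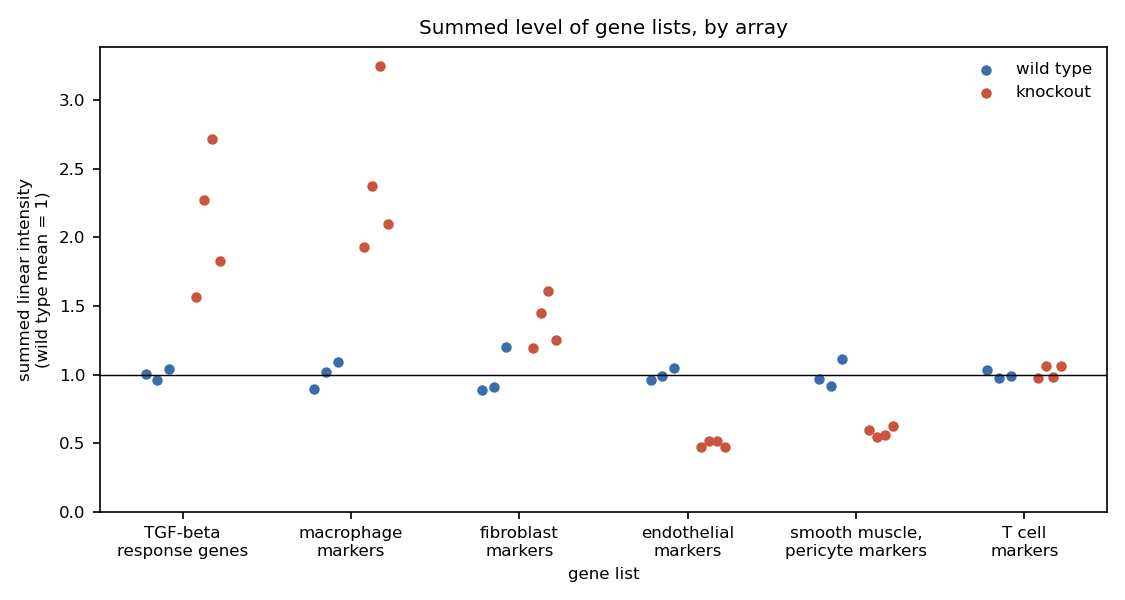
Summed linear intensity of gene lists on each array, divided by the mean of the 3 wild type arrays, in wild type (blue) and knockout (red). The knockout arrays stand above wild type for TGF-beta response genes and macrophage markers and below it for endothelial and for smooth muscle and pericyte markers. Bright genes weigh most in each sum, as Rgs5 does among the smooth muscle and pericyte markers. The lists were chosen with earlier results of these data known.

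Of 6 genes known to respond to BMP, 3 rose and none fell, or 50% called against 31.8% over all genes. The 3 that rose were inhibitors of differentiation: Id2 rose by 1.09 (SE 0.17, adjusted p = 0.00201), Id3 by 1.07 (SE 0.17, adjusted p = 0.00191) and Id4 by 0.38 (SE 0.12, adjusted p = 0.0439). The other Id2 probe sets measured 1.07, called higher, and 0.10, not called. The Id4 call was lost when wild type array 2 or 3 was left out (adjusted p = 0.123 and 0.158), or knockout array 1, 2 or 4 (0.0926, 0.108 and 0.0978). The other Id4 probe sets measured 0.75 and 1.45 and were called higher. Id1, a classical BMP target, measured -0.14 with a wide error (SE 0.43, adjusted p = 0.843).

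Fbxo32, the gene of the muscle ubiquitin ligase atrogin-1, which activins and myostatin are known to raise, was the only gene measured of a list of 3 such ligases. It read 12.23, 11.95 and 12.06 log2 units in wild type and 11.71, 11.49, 11.42 and 11.69 in knockout. The groups did not overlap, and the log2 fold change was -0.50 (SE 0.10, adjusted p = 0.00513).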

How the data were processed

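The authors deposited 1 intensity per probe set and array, made with RMA (background correction, normalization between arrays and probe summary) per the submitters' processing notes; the sources used here do not name the software behind it. Since these values were linear, log2(value + 1) was tested by limma 3.58.1 (R 4.3.3, two-sided, lmFit then eBayes). Of 22690 probe sets, 64 controls were left out; 20380 had 1 gene symbol, 691 several and 1555 none. Symbols were updated through RefSeq, which matched 12369 of 12393 genes. No filter on dim probe sets was used, and arrays give no depth. The number of arrays limits the precision, and so does the dimness of some probe sets. No scan dates were on hand, so batches could not be tested. No arrays were duplicates: at most 1819 values were equal in any pair. The members and lists were chosen with earlier results of these data known. Named genes were all members, Yy1 and, per pathway list, up to 3 called genes in each direction with the smallest p; others named were chosen after their values were seen. A planned search for genes with a pattern like that of Mstn had no probe set to start from. The limma script was tested on simulated data. Alternatives changed the pseudocount, scaling, filter, probe set choice, variance prior, replicate number and arrays.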

Additional observations from a re-analysis of the deposited data

Results flagged for a closer look

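In 48 sets of 4 knockout values looked at, 2 had an array that stood apart from the rest, where chance gives about 1 in 20. For Tgfbr1 at 1420893_a_at, knockout array 2 measured 5.16 log2 units and the other knockout arrays 4.73 each, so that the gap was the whole range (ratio 1). These values lie below the lower quartile of every array, which was 5.29 or more, and 3 arrays share 1 value to every digit given. For Id4, knockout array 3 measured 6.77, with the nearest knockout array at 7.13, a gap of 0.835 of the range; Id4 was the only gene of the BMP response list that rose whose groups overlapped.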

How the results depend on the processing

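The alternatives gave 239 values for the 17 probe sets: 232 kept their direction where called and their side of the threshold, 7 lost a call, all of Tgfb1, and none reversed. For the named pathway genes 404 of 428 did so and 24 lost a call. With only the brightest probe set of each gene, 4082 of 12393 were called, and 5 of the 9 member genes so tested, because fewer probe sets enter. Above the median level the median log2 fold change of the 9 member probe sets left was 0.46. The replicate numbers did not pair the arrays: same-numbered deviations correlated at 0.0479, -0.0976 and 0.0111, and 1 of 6 arrays correlated best with its own number. With the replicate number as a block 5060 probe sets were called, 8 of them among the 17 of the members, and Tgfb1 was not (adjusted p = 0.0985). Of the named genes, Inhbb (adjusted p = 0.0732), Bmp4 (0.0836), Smad2 (0.0524), Ppm1a (0.0583) and Bambi (0.093) were not called with the block either. Without 1 array, 8 to 9 of the 17 member probe sets and 4878 to 6224 of all probe sets were called. Dim probe sets limit what can be read of Smad3, Tgfbr1 and Tgfbr2.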
